A study of Rattus norvegicus with 8 samples.

Results

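Fibronectin and the integrins that bind it, or that release TGF-β from its latent form, were followed in the outflow veins of rat arteriovenous fistulas (AVFs) wrapped with BAPN or vehicle scaffolds. The 10 genes were chosen by name for these roles: Fn1, the α subunit genes Itga5, Itga8, Itga9, Itgav and Itga2b, the β subunit genes Itgb3, Itgb5 and Itgb8, and Itgbl1. The choice was made with earlier results of these data known. All 10 were found among the 32623 genes of the count files, and 9 passed the minimum for testing, a base mean of 100 normalized counts over the 8 rats. Itgb8, with a base mean of 78.9, did not. Itga9 and Itgbl1 stand apart in the set, since α9 binds its ligands at sequences other than RGD (arginine-glycine-aspartate) and Itgbl1 encodes a secreted protein that only resembles a β subunit.

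RNA was sequenced from 8 Sprague Dawley rats, 21 days after the epigastric vein had been joined end-to-side to the femoral artery. The BAPN group (3 females and 1 male) had a nanofiber wrap whose inner layer was loaded with β-aminopropionitrile, which inhibits lysyl oxidase, the enzyme that crosslinks collagen and elastin. The Vehicle group (2 females and 2 males) had the same wrap without drug. Every rat thus carried both a fistula and a wrap, and veins without them are not part of the comparison. The ages of the rats were not given in the sources used here.

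Fibronectin is a secreted glycoprotein that cells pull into fibrils by means of integrins, and these fibrils guide the deposition of collagen. An integrin is a pair of an α and a β subunit spanning the membrane, joined inside the cell to actin through talin, kindlin and other adaptor proteins. The α5β1 integrin is the main fibronectin receptor, αv integrins bind RGD in fibronectin, vitronectin and the latency peptide of TGF-β, and αIIbβ3 is the fibrinogen receptor of platelets. In vessel walls these receptors couple smooth muscle cells and fibroblasts to the matrix, and αv integrins can activate TGF-β by pulling on its latent complex.

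The total count ranged from 45039451 to 52241007 in the BAPN libraries and from 19548203 to 22442050 in the Vehicle libraries, so depth separated the groups completely and cannot be told apart from treatment. Values are given as CPM, counts scaled to a common total with TMM factors. The log2FC is the log2 fold change of BAPN against Vehicle in edgeR, and its standard error (SE) comes from limma-voom. A gene was called when its FDR (quasi-likelihood test of edgeR, Benjamini-Hochberg over 11682 genes) was below 0.05. By this rule 16.8% of all tested genes were called, 7.5% higher and 9.25% lower. The groups did not overlap for 24.7% of them, with BAPN higher for 12.7% and lower for 11.9%. In whole veins, fewer cells of a type and less RNA per cell cannot be told apart. The labels give no extraction or sequencing batch. The p-values set the difference between the groups against the spread of these 8 libraries within their groups.

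With BAPN, Itgb5 and Itga2b were called lower, none of the 9 tested genes was called higher, and Fn1 itself did not differ beyond the spread between rats. The calls, 2 of 9, stand against 16.8% called in either direction and 9.25% called lower over all genes. At an unadjusted p under 0.05 in edgeR, 6 of the 9 were lower and 0 higher, where 18.4% of all tested genes were lower and 17.4% higher at that threshold, and DESeq2 also called 0 members higher. The median log2FC of the 9 was -0.74, against 0.02 over all tested genes, and 8 of 9 were below 0, against 48.4% of all genes. Because the set was chosen with earlier results of these data known, these figures only describe it and are not an independent test. Without Vehicle 4 the median was -0.575 and 6 of 9 were below 0. DESeq2 called 5 of the 9 lower (Itga2b, Itga9, Itgav, Itgb5 and Itgbl1), and called 27.4% of all genes (12.3% higher and 15.1% lower).

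**Figure D1:**
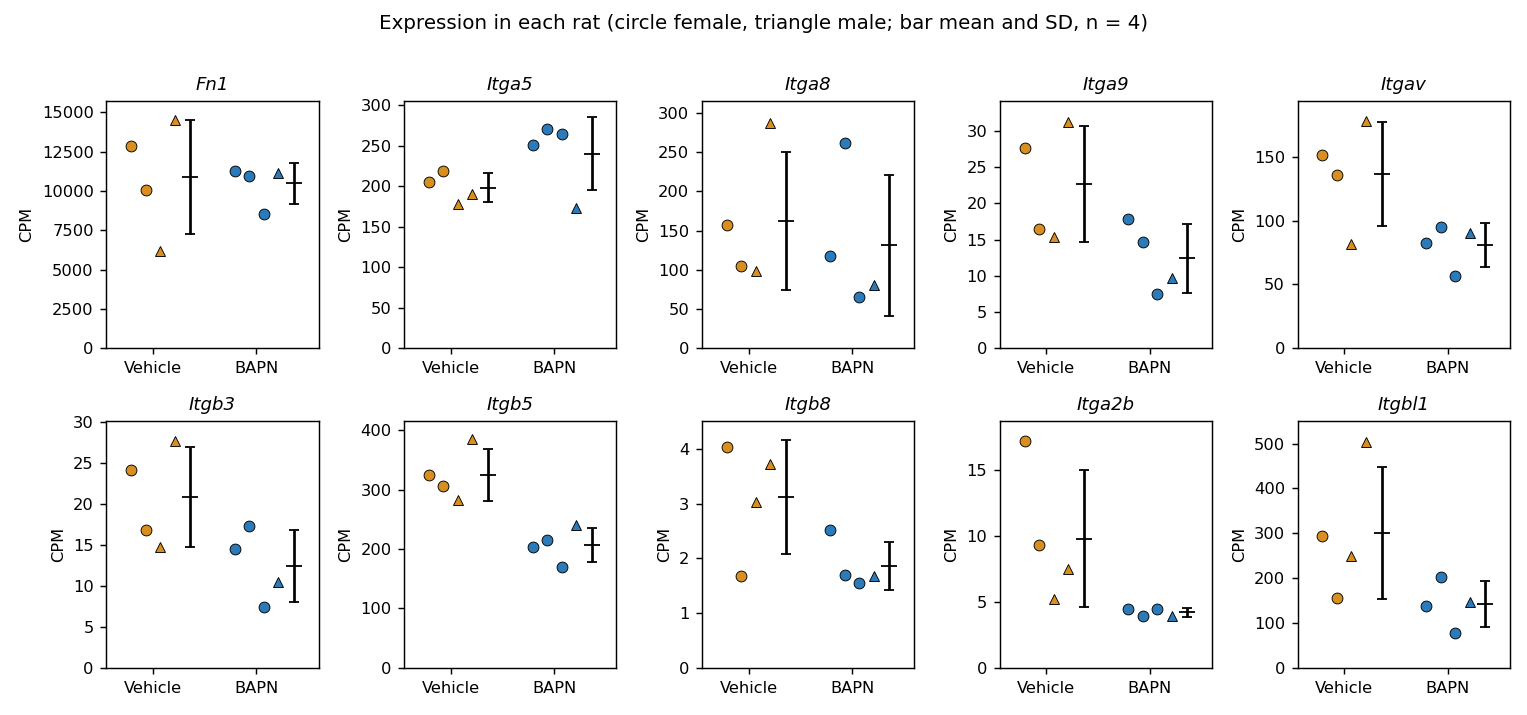
Expression of the 10 genes in each rat, as CPM on linear axes that start at 0, with circles for females, triangles for males, and the mean with SD of 4 rats beside each group. The groups do not overlap for Itgb5 and Itga2b, whereas the Fn1 values of the BAPN rats lie within the range of the Vehicle rats.

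Fn1 (ENSRNOG00000014288), the fibronectin gene, was measured at 11284, 10956, 8554 and 11172 CPM in BAPN 1 to 4 and at 12862, 10051, 6183 and 14507 CPM in Vehicle 1 to 4. All BAPN values lay between the lowest and the highest Vehicle value, and the Vehicle rats were more widely spread. The means were 10491 ± 1299 and 10900 ± 3644 CPM (SD, n = 4 in each group), giving a log2FC of -0.06 (SE 0.29, FDR 0.905, exact two-sided permutation p = 1.0). The 95% confidence interval from limma-voom reached from -0.66 to 0.66, a range that includes changes of either sign. The counts are per gene and do not separate the splice forms of fibronectin. The sign of this small difference turned when BAPN 3, Vehicle 1 or Vehicle 4 was left out, and reached 0.11 without Vehicle 4.

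Itga5 (ENSRNOG00000057451) encodes the α subunit of the main fibronectin receptor. It was at 250.1, 270.3, 264.6 and 173 CPM in BAPN 1 to 4 and at 204.5, 219, 178 and 191 CPM in Vehicle 1 to 4. The 3 BAPN females were above all Vehicle rats, and the BAPN male was below all of them. Its log2FC was 0.28 (SE 0.15, FDR 0.238, 95% interval from limma-voom -0.09 to 0.60), the only positive value in the set. Among females alone it was 0.31 (FDR 0.233), and without the BAPN male it was 0.39 (FDR 0.0797). The interaction with sex had an FDR of 0.549 in edgeR, and it rests on 1 BAPN male, so an effect that differs with sex could not be assessed. Its partner Itgb1, the β1 subunit shared by many integrins, was at 1118 ± 123 CPM in BAPN rats and 1000.4 ± 176 CPM in Vehicle rats (SD, n = 4 in each group), giving a log2FC of 0.16 (SE 0.17, FDR 0.521).

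Itga8 (ENSRNOG00000016538) encodes a β1 partner of smooth muscle and other contractile cells that binds fibronectin and, with high affinity, nephronectin. It was at 118, 262, 65.2 and 81.0 CPM in BAPN 1 to 4 and at 157, 105, 98.3 and 288 CPM in Vehicle 1 to 4. BAPN 2 and Vehicle 4 were each well above the other rats of their group, and the groups overlapped. Its log2FC was -0.30 (SE 0.46, FDR 0.675), with values from -0.89 without BAPN 2 to 0.13 without Vehicle 4.

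Itga9 (ENSRNOG00000043167) encodes a β1 partner that binds tenascin-C, osteopontin and the alternatively spliced EDA segment of fibronectin. It was at 17.9, 14.7, 7.47 and 9.68 CPM in BAPN 1 to 4 and at 27.7, 16.5, 15.4 and 31.3 CPM in Vehicle 1 to 4. BAPN 1 overlapped the lower Vehicle rats. The log2FC of -0.87 (SE 0.33) had an FDR of 0.0904, and 0.0397 with DESeq2.

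Itgav and the partner genes Itgb3, Itgb5 and Itgb8 were each at lower mean levels with BAPN, and of these Itgb5 passed the test. Itgb5 (ENSRNOG00000001795), the β5 subunit of the vitronectin receptor αvβ5, was at 203, 214, 169 and 240 CPM in BAPN 1 to 4 and at 325, 306, 283 and 385 CPM in Vehicle 1 to 4. The highest BAPN rat was below the lowest Vehicle rat, as for 11.9% of all tested genes. The means were 207 ± 29.2 and 325 ± 43.7 CPM (SD, n = 4 in each group). Its log2FC was -0.65 (SE 0.15, FDR 0.0242, exact two-sided permutation p = 0.0286, the smallest that 4 against 4 allow), or 1.57-fold lower. The call was kept with 5 of the 8 rats left out in turn and lost when BAPN 1 (FDR 0.0509), Vehicle 1 (FDR 0.0644) or else BAPN 3 (FDR 0.0594) was removed, with log2FC values between -0.74 and -0.56. It was also lost among females alone (-0.69, FDR 0.0909).

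Itgav (ENSRNOG00000004912), the αv subunit itself, was at 82.4, 95.2, 56.6 and 90.5 CPM in BAPN 1 to 4 and at 152, 135, 81.3 and 178 CPM in Vehicle 1 to 4. Vehicle 3 lay among the BAPN rats, and the other Vehicle rats were above all of them. Its log2FC was -0.75 (SE 0.25, FDR 0.0619, DESeq2 FDR 0.019). Without Vehicle 3 it was -0.93 and was called (FDR 0.0312), and with total counts in place of TMM scaling it was called as well (FDR 0.0487). It was not called without any other single rat (FDR 0.0747 to 0.143, with a log2FC of -0.60 without Vehicle 4), nor with limma-voom (FDR 0.0765), sex as a covariate (FDR 0.105) or females alone (FDR 0.0989).

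Itgb3 (ENSRNOG00000048449), the β3 subunit that pairs with αv on vascular cells and with αIIb on platelets, was at 14.5, 17.3, 7.43 and 10.5 CPM in BAPN 1 to 4 and at 24.2, 16.8, 14.7 and 27.7 CPM in Vehicle 1 to 4. The groups overlapped, and the log2FC was -0.74 (SE 0.30, FDR 0.104, DESeq2 FDR 0.056). Itgb8 (ENSRNOG00000006569), the β8 subunit that presents latent TGF-β without pulling on actin, had few reads. Its levels of 2.51, 1.70, 1.55 and 1.67 CPM in BAPN 1 to 4 rested on 67 to 121 counts, and those of 4.03, 1.68, 3.03 and 3.73 CPM in Vehicle 1 to 4 rested on 34 to 86. Without a filter on low counts its log2FC was -0.72 (FDR 0.260).

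Itga2b (ENSRNOG00000022071) encodes αIIb, the integrin subunit that defines platelets and their precursors, and it was called lower. It was at 4.48, 3.92, 4.45 and 3.94 CPM in BAPN 1 to 4 and at 17.2, 9.29, 5.22 and 7.50 CPM in Vehicle 1 to 4. The BAPN rats were nearly alike, the Vehicle rats ranged widely with Vehicle 1 highest, and the groups did not overlap. These levels rested on 189 to 216 counts with BAPN and 124 to 367 with Vehicle, with means of 4.20 ± 0.307 and 9.80 ± 5.20 CPM (SD, n = 4 in each group). Its log2FC was -1.22 (SE 0.33, FDR 0.0401, exact permutation p = 0.0286), or 2.33-fold lower. The call held without Vehicle 3 (FDR 0.0312) and was lost without any other single rat, with an FDR from 0.0523 (without Vehicle 2) to 0.0932 (without Vehicle 1, where the log2FC was -0.80). It was also lost with limma-voom (-1.07, FDR 0.0571), without a filter on low counts (FDR 0.0505) and among females alone (-1.63, FDR 0.0714). The study itself lists Itga2b and Itgbl1 from these libraries, so their place in the set is not independent of the data.

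Of 8 platelet and megakaryocyte markers, 2 passed the minimum for testing, and both had positive values that were not called. Pf4, a platelet chemokine that macrophages also express, had a log2FC of 0.63 (SE 0.25, FDR 0.114), and Treml1, a receptor of platelet granules, had one of 0.54 (SE 0.75, FDR 0.567). Gp1bb and Gp5 had no read in any library, and Gp1ba, Gp6, Gp9 and Ppbp had 0 to 37 counts per library, too few to be tested. The summed level of the 8 was 65.3 to 126 CPM in BAPN rats and 37.9 to 75.8 CPM in Vehicle rats, most of it Pf4. Mast cell markers summed to 29.8 to 56.4 CPM in BAPN rats and 38.8 to 67.0 CPM in Vehicle rats. Kit made up most of this sum in every rat but Vehicle 3. It was the only mast cell marker with a higher mean in BAPN rats (log2FC 0.08, FDR 0.88). Cma1 was lower in every BAPN rat but not called (log2FC -1.49, FDR 0.0633). Cpa3 was not called either (log2FC -0.92, FDR 0.205). The remaining mast cell markers were too low to be tested and had lower means in BAPN rats, with overlap between the groups. The part of these cells in the Itga2b result was not tested.

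Of the 10 genes, 8 had an entry in the RefSeq promoter set of assembly GRCr8. The 250 bases before the annotated start of the 2 called genes are shown because these are the members that passed the test. Both are on the minus strand and are written 5′ to 3′ in the direction of transcription, Itga2b at chr10:87925834-87926083 and Itgb5 at chr11:80449374-80449623. The Itga2b window lies inside the RefSeq span of the gene, since another of its transcripts is annotated to start further upstream. Capitals mark matches to GATAAG (the GATA factor motif) or to CCGGAAGT (an ETS factor motif, here read on the opposite strand).
Itga2b: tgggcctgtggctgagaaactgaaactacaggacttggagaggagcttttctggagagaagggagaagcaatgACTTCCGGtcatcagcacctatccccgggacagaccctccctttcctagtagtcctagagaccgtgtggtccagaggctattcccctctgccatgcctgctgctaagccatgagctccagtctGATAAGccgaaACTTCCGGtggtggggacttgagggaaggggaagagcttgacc
Itgb5: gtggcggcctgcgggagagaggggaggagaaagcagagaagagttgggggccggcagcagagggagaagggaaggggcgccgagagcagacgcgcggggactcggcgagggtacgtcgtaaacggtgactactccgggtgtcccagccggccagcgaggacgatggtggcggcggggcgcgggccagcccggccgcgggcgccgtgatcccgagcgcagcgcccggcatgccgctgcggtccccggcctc

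In the Itga2b window GATAAG began 54 bases before the start, and the ETS letters began 43 and 177 bases before it. Over all 33469 promoter windows of the same length, 6.18% held GATAAG, 3.1% held CCGGAAGT and 0.128% held both, on either strand. GATA and ETS factors are known regulators of the megakaryocyte program. Neither motif was in the other 7 windows, and the Itgb5 window also held no match to GGGCGG (the GC box) or TGANTCA (the AP-1 site), which 30.5% and 6.34% of windows held. The motifs were picked after the sequences had been seen, the matches only describe letters, and binding was not measured.

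Itgbl1 (ENSRNOG00000004516) encodes a secreted protein with EGF-like repeats of the β subunit type but no membrane anchor, known from fibrosis and skeletal tissue. It was at 137, 203, 77.9 and 148 CPM in BAPN 1 to 4 and at 294, 156, 249 and 504 CPM in Vehicle 1 to 4. Vehicle 2 lay among the BAPN rats, and Vehicle 4 was far above the rest. Its log2FC was -1.09 (SE 0.37, FDR 0.0707, DESeq2 FDR 0.0154, exact permutation p = 0.0571). It was called without Vehicle 2 (-1.30, FDR 0.0331) but not without any other single rat (FDR 0.0628 to 0.157), was -0.72 without Vehicle 4 (FDR 0.155), and was -0.69 among females alone (FDR 0.334).

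**Figure D2:**
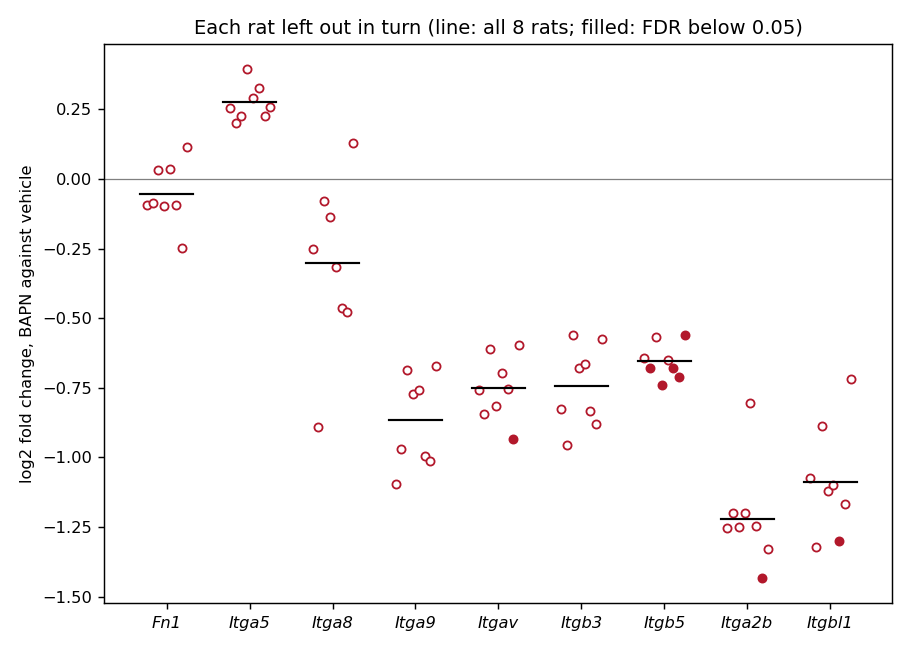
The log2FC of the 9 tested genes with each rat left out in turn (points, filled where the FDR was below 0.05), with a line at the value over all 8 rats. Itgb5 stayed between -0.74 and -0.56, whereas Itga8 moved from -0.89 to 0.13.

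The same rats were often the extremes of their group. BAPN 3 was the lowest BAPN rat for 7 of the 9 tested genes, Fn1, Itga8, Itga9, Itgav, Itgb3, Itgb5 and Itgbl1, against 28.6% of all tested genes. Vehicle 4 was the highest Vehicle rat for the same 7 genes, against 31.3% of all tested genes. Vehicle 3 was the lowest Vehicle rat for 8 of 9, the exception being Itgbl1, against 24.5% of all tested genes.

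To ask whether receptor composition differed, the counts of paired subunits were divided within each library, which removes its total. The Itgb5 to Itgav ratio was 2.47, 2.25, 2.99 and 2.65 in BAPN 1 to 4, against 2.14, 2.27, 3.48 and 2.16 in Vehicle 1 to 4. It differed by 0.07 on the log2 scale (SE 0.19, here from the SDs of both groups, exact permutation p = 0.743), so no difference in this ratio was detected. The ratios of Itgb3 to Itgav (-0.05, SE 0.19, exact p = 0.886), Itgb8 to Itgav (0.02, SE 0.39, exact p = 0.943), Itga5 to Itgb1 (0.09, SE 0.22, exact p = 0.6) and Itga2b to Itgb3 (-0.32, SE 0.43, exact p = 0.486) differed by less than the spread between rats as well.

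The Itga9 to Itgb1 ratio separated the groups. It was 0.0171, 0.0114, 0.00738 and 0.0086 in BAPN 1 to 4, against 0.0277, 0.0182, 0.0181 and 0.0251 in Vehicle 1 to 4, lower in every BAPN rat. The difference of -1.05 on the log2 scale (SE 0.31) had an exact permutation p of 0.0286 and an adjusted p of 0.2 over the 7 ratios, the smallest that a single separated ratio among 7 can reach with 4 rats against 4. Itga8 to Itgb1 differed by -0.55 (SE 0.44, exact p = 0.229), with overlap.

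**Figure D3:**
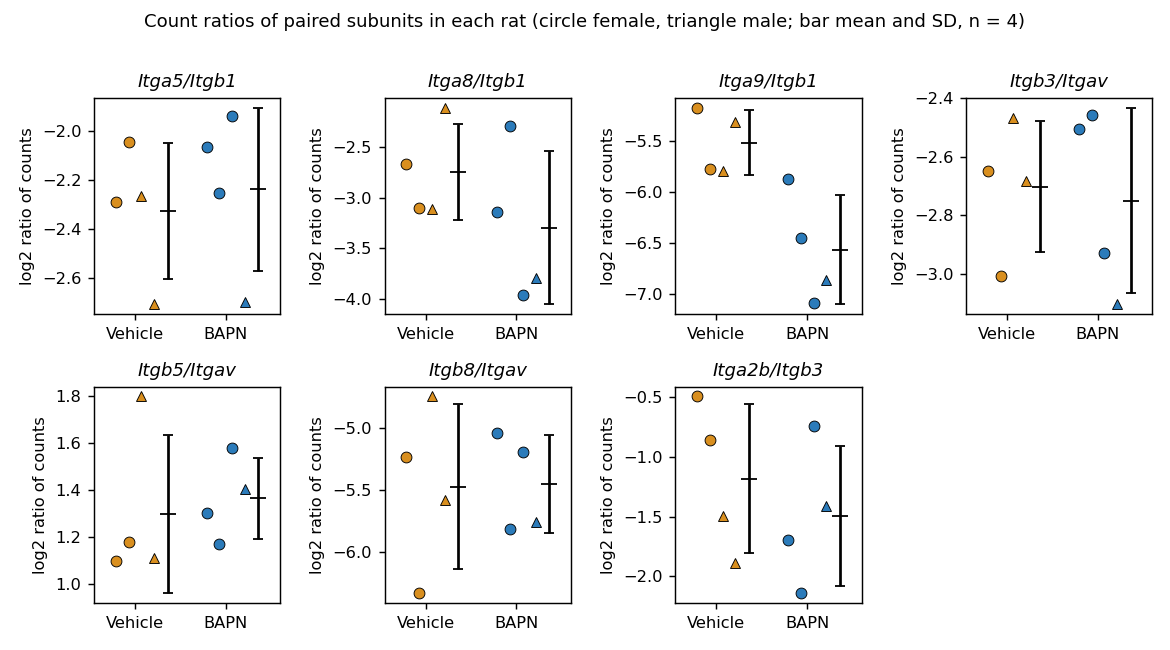
Log2 ratio of the counts of 2 integrin subunits in each rat for the 7 pairs, with circles for females, triangles for males, and the mean with SD of 4 rats (axes do not start at 0). The groups do not overlap for Itga9 to Itgb1, and they overlap for the other 6 ratios.

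Among 15 other tested integrin subunits, Itgb4 alone was called, lower with BAPN, where 16.8% of all tested genes were called, and the median log2FC was 0.09. Itgb4, the β4 subunit of the laminin receptor α6β4, was at 51.3 ± 11.2 CPM in BAPN rats and 156 ± 46.0 CPM in Vehicle rats (SD, n = 4 in each group), giving a log2FC of -1.61 (SE 0.24, FDR 0.00863). It was called with each of the 8 rats left out in turn. Itga4, whose product also binds fibronectin, at a splice segment without RGD, had a log2FC of 0.21 (SE 0.30, FDR 0.631). Itga7, the laminin receptor subunit of muscle, had one of -1.02 (SE 0.34, FDR 0.0637) and was called without BAPN 2 (FDR 0.0499). Itgb6, the epithelial partner of αv, was at 0 to 1.22 CPM and was not tested.

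Of 21 other ligands and fibronectin co-receptors tested, 3 fell, Vtn, Npnt and Vwf, and 1 rose, Edil3, a share near the 16.8% called over all tested genes. The median log2FC was -0.58. Vtn, which encodes vitronectin, the main ligand of αvβ5, was at 16.6, 8.89, 7.03 and 9.60 CPM in BAPN 1 to 4 and at 22.1, 18.1, 20.2 and 39.5 CPM in Vehicle 1 to 4. All BAPN rats were below all Vehicle rats (log2FC -1.24, SE 0.31, FDR 0.0325). Of the fits that left out 1 rat, those without BAPN 1 or Vehicle 2 kept the call and the others lost it (FDR at most 0.0848, without BAPN 3), and it was also lost with sex as a covariate (FDR 0.0755).

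Npnt, which encodes nephronectin, the high-affinity ligand of α8β1, fell with little spread in either group. It was at 8.36, 7.30, 6.60 and 8.06 CPM in BAPN 1 to 4 and at 14.7, 15.5, 18.6 and 14.5 CPM in Vehicle 1 to 4. Its log2FC was -1.07 (SE 0.15, FDR 0.00853), or 2.09-fold lower, and it was called with each of the 8 rats left out. Vwf, the von Willebrand factor of endothelium and platelets, was at 58.5 to 102 CPM in BAPN rats and at 768, 269, 106 and 161 CPM in Vehicle 1 to 4. Its log2FC of -1.99 (SE 0.50, FDR 0.0389) was -1.13 without Vehicle 1 (FDR 0.067), and the call was also lost without any 1 of the BAPN rats (FDR up to 0.0966).

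Edil3, which encodes a secreted RGD protein that binds αv integrins, was at 10.3, 13.4, 15.5 and 33.6 CPM in BAPN 1 to 4 and at 8.57, 9.64, 4.25 and 3.20 CPM in Vehicle 1 to 4. Its call stood at the threshold (log2FC 1.51, SE 0.55, FDR 0.0499), was kept without BAPN 1 or Vehicle 2 only, and was lost with median-of-ratios scaling (FDR 0.0518). Without BAPN 4, the male, the log2FC of Edil3 was 1.02 (FDR 0.117), and among females alone it was 0.52 (FDR 0.239). The call was also lost with sex as a covariate (FDR 0.0857) and with limma-voom (FDR 0.09). Spp1, which encodes osteopontin, a ligand of αv and α9 integrins made in quantity by macrophages, was at 7879 to 15341 CPM in BAPN rats and 1666 to 7882 CPM in Vehicle rats. Its log2FC of 1.06 (SE 0.52) missed the threshold (FDR 0.126), DESeq2 gave an FDR of 0.043, and among females alone it was 0.28 (FDR 0.542).

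The remaining ligands fixed by role did not pass. Tnc, the tenascin-C gene, had a log2FC of 0.05 (SE 0.46, FDR 0.949) and was 0.73 without Vehicle 4. Thbs1, the thrombospondin that activates latent TGF-β, was at 2044 CPM in Vehicle 4 and 184 to 365 CPM in the other Vehicle rats, and its log2FC of -0.62 (FDR 0.569) became 0.80 without Vehicle 4. Fbln5, an elastic fiber protein with an RGD site, was at -0.61 (SE 0.31, FDR 0.198). Sdc4, the syndecan that acts as a fibronectin co-receptor, was at 0.38 (SE 0.19, FDR 0.165).

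**Figure D4:**
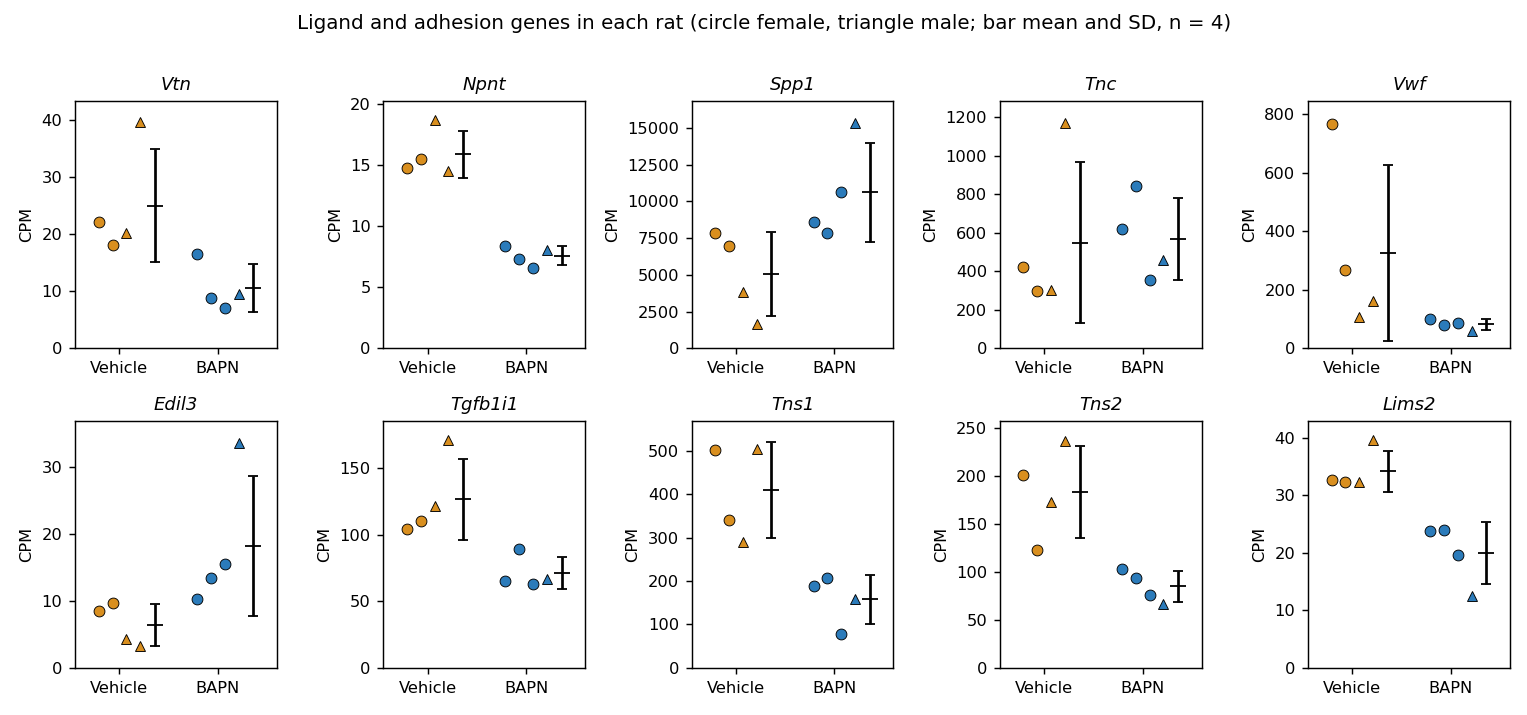
CPM of 6 ligands and of 4 adhesion complex genes in each rat on linear axes that start at 0, with circles for females, triangles for males, and the mean with SD of 4 rats. Npnt, Vtn, Vwf, Tns1, Tns2, Tgfb1i1 and Lims2 were lower in every BAPN rat than in every Vehicle rat, and Edil3 was higher.

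Inside the cell, 4 of 26 tested genes of the integrin adhesion complex were called, all lower, and the median log2FC was -0.22. The share called was near the 16.8% called in either direction over all tested genes, of which 9.25% were called lower. Tns1 and Tns2 encode tensins, which bind β subunit tails in fibrillar adhesions where fibronectin is assembled. Tns1 was at 158 ± 56.9 CPM in BAPN rats and 410 ± 110.2 CPM in Vehicle rats, giving a log2FC of -1.38 (SE 0.32, FDR 0.0226), and Tns2 had one of -1.11 (SE 0.21, FDR 0.0158). Tgfb1i1, which encodes the paxillin relative Hic-5 of smooth muscle, was at -0.83 (SE 0.18, FDR 0.0205), and Lims2, a PINCH adaptor of integrin-linked kinase, was at -0.78 (SE 0.21, FDR 0.0333). Tns1 lost its call without BAPN 4 (FDR 0.0525) or Vehicle 1 (FDR 0.0636), Tns2 without Vehicle 1 (FDR 0.0505), Tgfb1i1 without BAPN 3 (FDR 0.0577) or BAPN 4 (FDR 0.0516), and Lims2 without BAPN 3 (FDR 0.0833), Vehicle 1 (FDR 0.0736), Vehicle 3 (FDR 0.0574) or Vehicle 4 (FDR 0.0716).

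The general activators and signaling components of integrins did not pass the test. The talin gene Tln1 had a log2FC of -0.17 (FDR 0.498), the kindlin gene Fermt2 -0.17 (FDR 0.580), the integrin-linked kinase gene Ilk 0.14 (FDR 0.402), the focal adhesion kinase gene Ptk2 -0.34 (FDR 0.242), the paxillin gene Pxn -0.19 (FDR 0.363) and the vinculin gene Vcl -0.38 (FDR 0.321). The limma-voom 95% interval of Ilk, the tightest of these, ran from -0.12 to 0.38.

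Of 9 genes listed for TGF-β and its latent complex, 4 fell, Ltbp4, Tgfb3, Lrrc32 and Ltbp3, where 9.25% of all tested genes were called lower, and the median log2FC was -0.60. Ltbp4, a latent TGF-β binding protein of elastic fibers, had the largest of these changes (log2FC -1.57, SE 0.23, FDR 0.00863) and was called with each of the 8 rats left out. Tgfb3 (-1.41, FDR 0.0318), Lrrc32, which encodes the cell surface anchor GARP (-0.96, FDR 0.0299), and Ltbp3 (-0.95, FDR 0.0409) each kept their calls without BAPN 2 or Vehicle 2 only, with FDRs up to 0.0897, 0.0836 and 0.108, all without BAPN 3. Sex as a covariate removed the same 3 calls. Tgfb1 was at 360 ± 45.6 CPM in BAPN rats and 404 ± 114 CPM in Vehicle rats (SD, n = 4 in each group), giving a log2FC of -0.16 (SE 0.22, FDR 0.601).

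**Figure D5:**
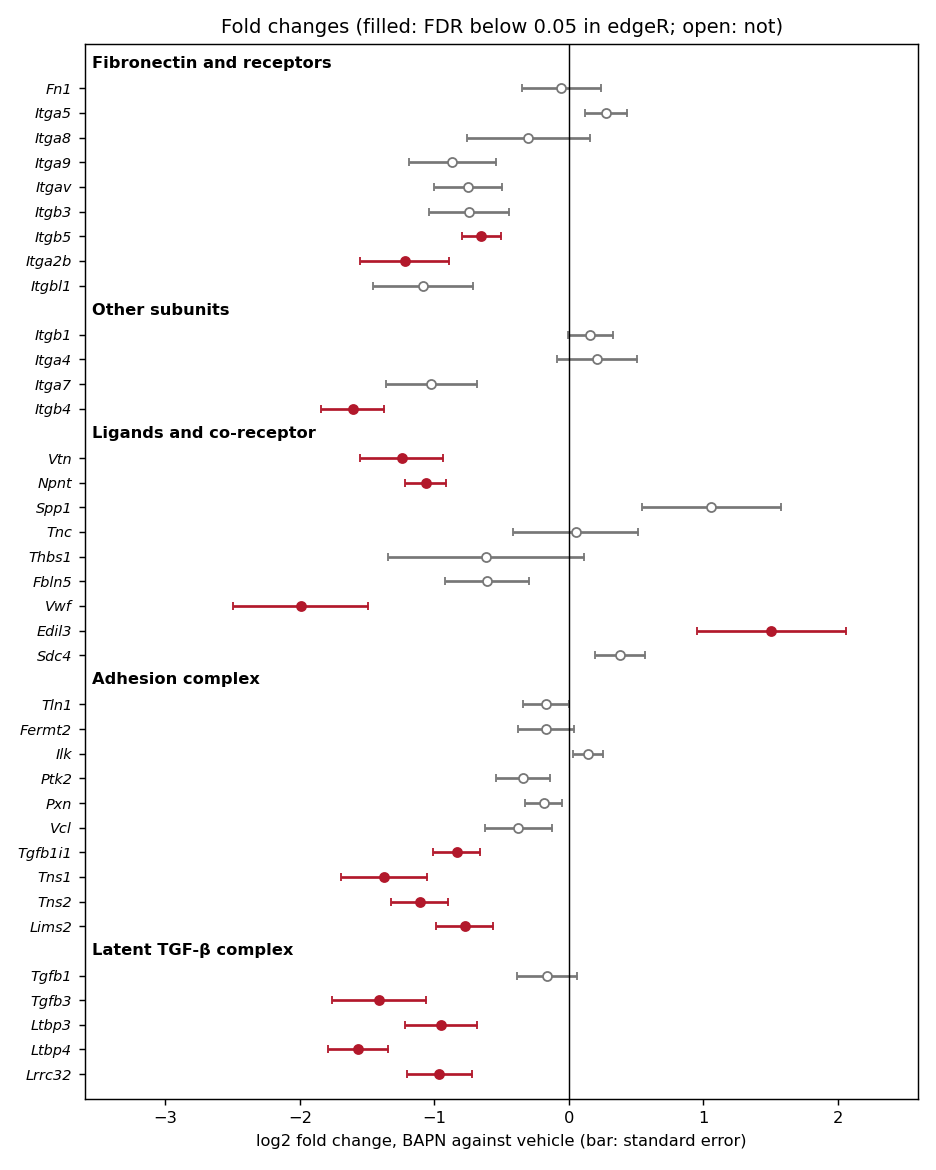
Log2 fold changes of BAPN against Vehicle for the tested genes named here, grouped by role, with the limma-voom standard error as the bar and filled points where the edgeR FDR was below 0.05. Fn1 lies near 0 and Itga5 above it with open points, while Itgb5, Itga2b, Itgb4, 3 ligands, 4 adhesion genes and 4 latent complex genes are filled and lower, and Edil3 is filled and higher.

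Some cell type markers differed between the groups as well. Over all tested genes, 9.25% were called lower and 7.5% higher. The groups did not overlap for 11.9% with BAPN lower and for 12.7% with BAPN higher. The summed level of 7 endothelial markers was 432 to 572 CPM in BAPN rats and 587 to 995 CPM in Vehicle rats, without overlap, and 2 of the 7, Tek and Esam, were called lower. That of 8 macrophage markers was 26790 to 40410 CPM in BAPN rats and 5288 to 22020 CPM in Vehicle rats, also without overlap, most of it Lyz2, with Aif1 as the 1 called gene. Smooth muscle markers overlapped in sum (1662 to 4225 CPM against 3218 to 5977 CPM), and 5 of 8 were called lower, including Myh11 (log2FC -1.60, FDR 0.0148). The 8 fibroblast markers overlapped in sum (23540 to 36830 CPM against 28660 to 95110 CPM), most of it Col1a1 and Col3a1. None was called, 7 of the 8 had negative values, and the top of the range was in Vehicle 4. Of 6 lymphatic endothelial markers, Prox1 was called, lower in every BAPN rat (log2FC -2.05, SE 0.37, FDR 0.0119), and the sums overlapped (446 to 558 CPM against 385 to 889 CPM). Of 5 tested adipocyte markers, 4 had negative values, and Plin1 was called (log2FC -2.13, SE 0.74, FDR 0.0444). Plin1 and Adipoq were highest in Vehicle 1, as were Itga2b and Vwf, at 61.3 and 107 CPM, and the adipocyte sums, most of them Fabp4, overlapped (1063 to 2930 CPM against 438 to 1709 CPM). The sums of Schwann cell markers (108 to 315 CPM against 107 to 228 CPM) and of skeletal muscle markers (16.1 to 30.3 CPM against 17.7 to 71.4 CPM) overlapped. The part of cell composition in the lower Itgb5, Itga2b, tensin and ligand levels was not tested.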

How the data were processed

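RNA from the outflow veins of 8 rats, 4 per group, was depleted of ribosomal RNA and sequenced by the authors as stranded libraries. The deposited files hold whole-number counts of reads per Ensembl gene, 1 file per rat, without normalization. The submitters' processing notes name bcl2fastq 2.17, Trim Galore and STAR. The counting tool, strand setting and genome build are not given in the sources used here, so how reads of overlapping genes were assigned is unknown. Groups, replicate numbers and sex were taken from the labels.

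Genes with a DESeq2 base mean of at least 100 were kept (11682), as in the study's methods. The groups were compared with edgeR 4.0.16 (TMM, quasi-likelihood F test, no covariates) in R 4.3.3, standard errors and intervals of fold changes came from limma 3.58.1 (voom), and DESeq2 1.42.0 was run beside them. Exact permutation tests of log2 CPM (prior count 2 added) and of subunit ratios used all 70 arrangements of 4 against 4, were two-sided, and cannot give a p below 0.0286. Libraries within a group differed by far more than sampling of reads gives (chi-square divided by its degrees of freedom, 68.6 to 321), so each counted as 1 replicate. The steps were tested on simulated counts.

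The members, gene lists and ratios were chosen with earlier results of these data known. All members were named, with partners, ligands and adhesion genes fixed by role and up to 3 called genes of each list with the lowest FDR. Edil3, Lims2 and Ltbp3, and the marker genes, were named after their values were seen. Alternatives were DESeq2, limma-voom, other scaling, other filters, adjusting for sex, fitting females alone, blocking on the replicate number, thinning counts to equal totals (19548203), and leaving out each rat. A test of the interaction with sex was added after seeing the data. A gene of the marker lists was left out of the sums and is not reported here. Gene lengths were not used, so levels are not compared between genes.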

Additional observations from a re-analysis of the deposited data

Results flagged for a closer look

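Within groups of 4 rats, 10 of 92 sets of values held a rat that lay far from the others of its group by Dixon's criterion, where chance gives about 4.6. BAPN 3 was low for Fn1, at 8554 CPM against 10956 CPM in the next rat, and BAPN 1 was high for Itgb8, at 2.51 against 1.70 CPM. The Itgb5 to Itgav log2 ratio was 1.80 in Vehicle 3 against 1.18 in the next rat.

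Vehicle 4 was high for Tnc (1171 against 425 CPM), Thbs1 (2044 against 365 CPM), Vcl (437 against 271 CPM) and Lims2 (39.6 against 32.7 CPM). BAPN 2 was high for Tgfb3 (200.3 against 89.2 CPM) and Tgfb1i1 (88.9 against 66.8 CPM). BAPN 1 was low for Sdc4, at 78.7 CPM against 119 CPM in the next rat.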

How the results depend on the processing

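Over all genes, 1957 were called (876 higher, 1081 lower). The counts were 3202 (1439 and 1763) with DESeq2, 930 (389 and 541) with sex as a covariate and 89 (35 and 54) among females alone. With total counts only, 1665 were called, 504 higher and 1161 lower, and the median log2 fold change of all genes went from 0.02 to -0.04. With each rat left out they ranged from 397 to 2215 (150 to 927 higher and 247 to 1288 lower), the lowest without Vehicle 1. Members called lower were 2, or 5 with DESeq2, 1 with limma-voom or without a filter on low counts, 0 among females alone (3 at an unadjusted p under 0.05 in edgeR, where 12.7% of all genes were lower), and 0 to 3 with each rat left out, with 0 without BAPN 1, BAPN 3 or Vehicle 1 (6, 4 and 4 at an unadjusted p under 0.05, where 17%, 15.2% and 15.2% of all genes were lower). Of all tested genes, 16.8% were called, or 27.4% with DESeq2, 15.3% with limma-voom and 7.96% with sex as a covariate. That share was 0.762% among females alone and 3.4% to 19% with a rat left out. Other integrin subunits called were 1 of 15, or 5 with DESeq2, 0 among females alone and 1 to 2 with a rat left out. Ligands called were 4 of 21, or 8 with DESeq2, 2 with limma-voom or sex as a covariate, 0 among females alone and 1 to 6 with a rat left out. Adhesion genes called were 4 of 26, or 0 among females alone and 1 to 4 with a rat left out. Latent TGF-β genes called were 4 of 9, or 1 with sex as a covariate, 0 among females alone and 1 to 4 with a rat left out. Counts thinned to equal totals called 1867 genes and the same 2 members.

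The replicate numbers were not taken to pair the rats (correlations of same-numbered deviations -0.265, -0.14, 0.0944 and 0.269). With the replicate block 556 genes were called (200 higher, 356 lower), or 4.76% of all tested genes. They included 2 members (Itgb5 and Itgav, but not Itga2b, FDR 0.0891 in edgeR), 1 ligand, 1 adhesion gene and 1 latent TGF-β gene. The block turned the log2 fold change of Fn1 to 0.0064 and that of Thbs1 to 0.061. A sign-flip test over same-numbered rats called no ratio, and with 4 pairs cannot give a p below 0.125.

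Among females alone the sign turned for Itga8 (0.18), Itga4 (-0.30), Thbs1 (0.67), Fermt2 (0.065) and the Itgb3 to Itgav ratio (0.20). With a rat left out, signs turned within the ranges -0.25 to 0.11 for Fn1, -0.89 to 0.13 for Itga8, -0.024 to 0.48 for Itga4, -0.21 to 0.73 for Tnc, -0.94 to 0.80 for Thbs1 and -0.33 to 0.0060 for Tgfb1. For ratios these were -0.039 to 0.24 for Itga5 to Itgb1, -0.15 to 0.071 for Itgb3 to Itgav, -0.0046 to 0.23 for Itgb5 to Itgav and -0.26 to 0.26 for Itgb8 to Itgav. The cause of these changes was not tested. Precision is limited by 4 rats a group, and depth follows the groups.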

Other observations

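Edil3 and Spp1 were lower in the males than in the females of the Vehicle group. Edil3 was at 8.57 and 9.64 CPM in the Vehicle females and at 4.25 and 3.20 CPM in the Vehicle males, whereas the BAPN male was at 33.6 CPM and the BAPN females at 10.3, 13.4 and 15.5 CPM. The interaction of treatment with sex was 2.65 on the log2 scale (unadjusted p = 0.0002), and it did not pass the adjustment over all genes (FDR 0.139 in edgeR). Spp1 was at 7882 and 6956 CPM in the Vehicle females, 3854 and 1666 CPM in the Vehicle males and 15341 CPM in the BAPN male, with an interaction of 2.19 (unadjusted p = 0.00881, FDR 0.265 in edgeR). The comparison was chosen after seeing the data. No gene of 11682 passed this edgeR test of interaction (1442 had an unadjusted p under 0.05), none of the 9 tested members had an unadjusted p under 0.05, and the BAPN group held 1 male.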
